A study of Mus musculus with 36 samples.

Results

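The 9 genes described here encode the zinc-dependent class I histone deacetylases *Hdac1*, *Hdac2*, *Hdac3* and *Hdac8* and 5 proteins of the corepressor complexes around them, *Ncor1*, *Sin3a*, *Rcor1*, *Mta1* and *Chd4*. They were taken by gene symbol, through the Ensembl identifier of each row, from a table of 54347 mouse genes, and all 9 were among the 15340 genes whose level was above 1 CPM (counts of a gene scaled to one common library size) in at least 6 of 36 RNA-seq libraries. The genes were picked by name and function, with earlier results of these data known. The libraries were made from cells of male mice in primary culture: adipocytes differentiated from the inguinal stromal vascular fraction of pooled animals, macrophages grown from bone marrow in L929-conditioned medium, skeletal muscle myotubes, and hepatocytes isolated with collagenase. Each cell type had 3 libraries after 6 h with PBS (control), 3 after 6 h with 5 mM β-hydroxybutyrate (βOHB, the (R)-3-hydroxybutyric acid sodium salt) and 3 after 6 h with 5 mM butyrate (sodium salt), which makes 12 groups. The medium differed between cell types (DMEM with serum for adipocytes and macrophages, differentiation medium for myotubes, Williams E for hepatocytes), so a level compared across cell types also compares media. The labels give the strain as C57Bl/6 throughout, and the methods give C57BL/6NHsd for the hepatocytes, so strain background and cell type cannot be told apart there. The labels number the 3 libraries of a group but do not say that they came from separate animals or cultures, so p-values here measure the spread between these libraries only.

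Histone deacetylases remove acetyl groups from lysines of histone tails, and loss of acetylation is generally linked to closed chromatin and low transcription. The class I enzymes rarely act alone. HDAC1 and HDAC2 are the shared catalytic subunits of the NuRD, SIN3, CoREST and MiDAC complexes, HDAC3 works within the NCoR and SMRT complexes, and HDAC8 deacetylates the cohesin subunit SMC3 without a stable corepressor. SIN3A and RCOR1 are scaffolds, NCOR1 bridges nuclear receptors to HDAC3 and stimulates its activity, CHD4 is the ATP-dependent remodeller of NuRD, and MTA1 carries the surface that binds HDAC1 and HDAC2 in NuRD. Butyrate is a long-known inhibitor of class I enzymes. The study asked how far βOHB, which differs from it by a hydroxyl group, alters gene expression, with butyrate set beside it as the known inhibitor.

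Library totals ranged from 18366289 to 23221473 estimated counts, and the counts of the 9 genes ranged from 60 for *Hdac8* to 13706 for *Chd4*. The biological coefficient of variation shared by all groups was 0.080. *H1f0*, a linker histone gene long known to rise with butyrate, was higher under butyrate by 3.10, 3.91, 2.00 and 2.40 on the log2 scale in adipocytes, macrophages, myotubes and hepatocytes, and did not pass the test under βOHB. The markers of each labelled cell type were present in its own libraries. Under butyrate 4 of 6 were called lower in adipocytes, 3 of 6 in myotubes and 1 of 6 in hepatocytes. In macrophages 2 of 6 were, with a summed level of 10606 to 11148 CPM against 16884 to 17057 CPM in controls. None was called higher, but the summed level in hepatocytes rose from 36606 to 38159 CPM in controls to 40240 to 42391 CPM. In myotube libraries the summed level of 6 hepatocyte markers was at most 0.044 CPM in controls but 30.9, 547 and 127 CPM in butyrate replicates 1, 2 and 3 and 24.0 CPM in 1 βOHB library, against 36606 CPM or more in control hepatocytes. The summed level of 6 macrophage markers in myotube libraries was 116 to 304 CPM in controls, 42.6 to 114 CPM under βOHB and 16.5 to 75.5 CPM under butyrate, and all 6 passed the test downwards under both compounds. In macrophages under butyrate, 3 markers of proliferating cells summed to 509 to 607 CPM against 1306 to 1342 CPM in controls, and 6 of 6 myotube markers were called higher there, at 20.8, 24.5 and 61.0 CPM in replicates 1, 2 and 3 against 6.82 to 13.4 CPM in controls. The same 3 proliferation markers summed to 29.5 to 64.5 CPM in control myotubes, 17.3 to 22.2 CPM under βOHB (2 of 3 called lower) and 11.2 to 16.3 CPM under butyrate (3 of 3 lower). Of 6 adipocyte markers in hepatocytes, 3 were called higher and 1 lower under butyrate, with sums of 63.2 to 68.6 CPM against 48.6 to 50.9 CPM. In hepatocytes, 3 endothelial markers, all called lower under butyrate, summed to 19.2 to 22.5 CPM against 61.0 to 68.4 CPM in controls. In myotubes 1 of these 3 was called higher, with sums of 8.09 to 14.8 CPM against 3.43 to 4.59 CPM. In adipocytes 2 of these 3 were called lower, with sums of 109 to 128 CPM under butyrate against 167 to 192 CPM, and in macrophages 2 of 3 were called lower with overlapping sums (45.7 to 52.3 against 42.5 to 58.8 CPM). In control adipocytes 4 fibroblast markers summed to 5753 to 6721 CPM, and in control macrophages to 2329 to 2450 CPM. They summed to 1288 to 1536 CPM in control myotubes and 17.5 to 21.7 CPM in control hepatocytes. The part of these levels and shifts in the results below was not tested. In bulk RNA, fewer cells of a type and less RNA per cell cannot be told apart.

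In control cells, all 9 genes were measured in all 4 cell types, and the highest and lowest cell type differed by 1.15-fold for *Ncor1* up to 3.01-fold for *Hdac2*. *Hdac2* mRNA was at 109 ± 3.40 CPM in myotubes (mean ± SD, n = 3, as for all levels below), 76.0 ± 2.72 CPM in adipocytes, 54.4 ± 1.08 CPM in macrophages and 36.3 ± 3.52 CPM in hepatocytes, with no overlap between neighbours in that order. *Hdac1* was lowest in myotubes, at 42.8 ± 2.32 CPM, and highest in adipocytes, at 70.3 ± 1.64 CPM, while macrophages (64.8 ± 2.83 CPM) and hepatocytes (63.1 ± 1.10 CPM) overlapped. *Hdac3* was at 74.7 ± 2.45 CPM in hepatocytes, above the other 3 cell types, which overlapped in sequence at 51.2 ± 1.29, 50.3 ± 2.00 and 49.0 ± 1.82 CPM in adipocytes, myotubes and macrophages. *Hdac8* had the lowest values of the 9, from 3.95 ± 0.122 CPM in myotubes to 7.41 ± 0.268 CPM in macrophages, where it overlapped with hepatocytes at 7.08 ± 0.680 CPM.

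Among the corepressor genes, *Sin3a* and *Rcor1* had their highest control level in macrophages, at 83.0 ± 2.29 and 97.2 ± 0.839 CPM. *Sin3a* was lowest in myotubes at 38.6 ± 1.41 CPM and *Rcor1* in adipocytes at 55.1 ± 1.15 CPM, and for both genes no neighbours in the order overlapped. *Mta1* went from 91.1 ± 3.23 CPM in hepatocytes through 67.9 ± 1.30 and 56.8 ± 0.755 CPM in myotubes and adipocytes to 51.0 ± 0.877 CPM in macrophages, again without overlap. *Chd4* was highest in myotubes at 489 ± 24.0 CPM and lowest in adipocytes at 336 ± 11.3 CPM, with macrophages and hepatocytes overlapping between them. *Ncor1* varied least, from 224 ± 22.2 CPM in hepatocytes to 258 ± 7.27 CPM in macrophages, and adipocytes overlapped with myotubes, and myotubes with hepatocytes.

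**Figure D1:**
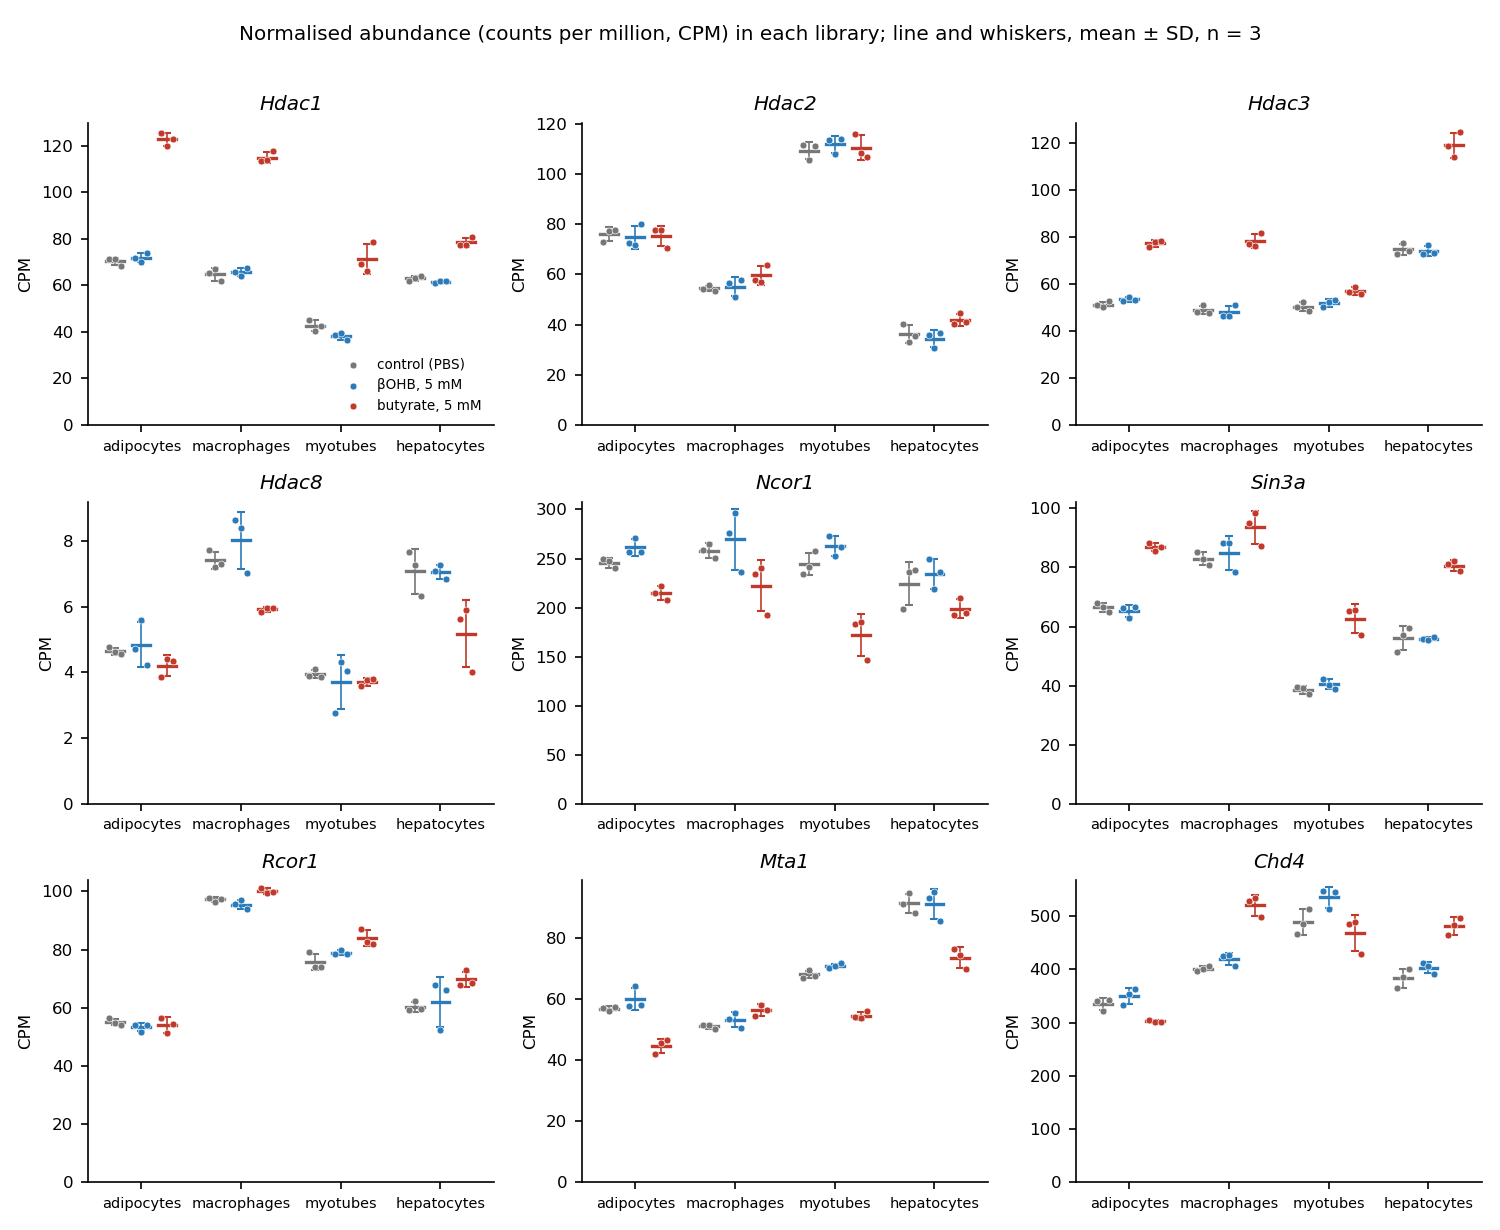
Level of the 9 genes in each of the 36 libraries, in CPM (axis starting at 0, its own scale per gene), by cell type and treatment. Points are libraries, horizontal lines the means of 3 and whiskers the SD. *Hdac1* under butyrate lies above control in every cell type, from 66.1 to 78.8 CPM against 40.6 to 45.2 CPM in myotubes and from 120.0 to 125 CPM against 68.4 to 71.3 CPM in adipocytes.

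Under butyrate some of the 9 genes rose and others fell in every cell type (with library totals alone, none fell in macrophages), in numbers near those of all genes in adipocytes and myotubes. Against control, 5 of 9 passed the test in adipocytes, 7 in macrophages, 6 in myotubes and 8 in hepatocytes (edgeR quasi-likelihood test, Benjamini-Hochberg adjusted p under 0.05, for which a gene is called changed below). Of all 15340 genes, 61% passed in adipocytes, 65% in macrophages, 66.5% in myotubes and 63.5% in hepatocytes, so a change of about that share was the background. The calls were higher for 3, 5, 4 and 6 genes, beside 30.7%, 31.9%, 33.1% and 31% of all genes, and lower for 2 in each cell type, beside 30.3%, 33.2%, 33.4% and 32.4%. Over the 36 gene and cell type combinations, 18 were higher, 8 were lower and 10 were not called. The log2 fold change had a median over the 9 genes of -0.030 in adipocytes, 0.14 in macrophages, 0.014 in myotubes and 0.21 in hepatocytes, where the median of all genes was 0, 0, 0 and -0.0083. Control and butyrate libraries did not overlap for 7, 9, 7 and 8 of the 9 genes, beside 67.3%, 72.2%, 64.8% and 68.5% of all genes.

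*Hdac1*, *Hdac3* and *Sin3a* were called higher in all 4 cell types, as were 12.5% of all genes, and none of the 9 was called lower in all 4, beside 12.7% of all genes. The 3 remained the genes higher everywhere in 31 of 33 alternative analyses. Without a filter on low counts *Hdac1* alone did, and at an unadjusted P below 0.001 *Sin3a* was not called in macrophages, which left *Hdac1* and *Hdac3*. *Mta1* and *Chd4* were called in both directions, depending on the cell type. Only 1 of the 9 was with library totals alone and in some fits with 1 library left out. Without a filter on low counts, or at an unadjusted P below 0.001, 0 were. Dividing by library totals alone, with no correction for composition, moved the median of all genes under butyrate up by 0.20 in macrophages and 0.13 in myotubes. All-gene calls in macrophages then went from 4886 higher and 5086 lower to 6685 and 3339, those in myotubes from 5083 and 5117 to 6271 and 3873, and the 9 genes in macrophages from 5 higher and 2 lower to 7 and 0. In adipocytes this scaling left 3 higher and 1 lower in place of 3 and 2, so that 4 of 9 were called. In myotubes and hepatocytes the split of the 9 was 4 to 2 and 6 to 2 either way. All-gene calls went from 4717 higher and 4642 lower to 5406 and 3793 in adipocytes. Those in hepatocytes went from 4762 and 4975 to 5183 and 4474.

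**Figure D2:**
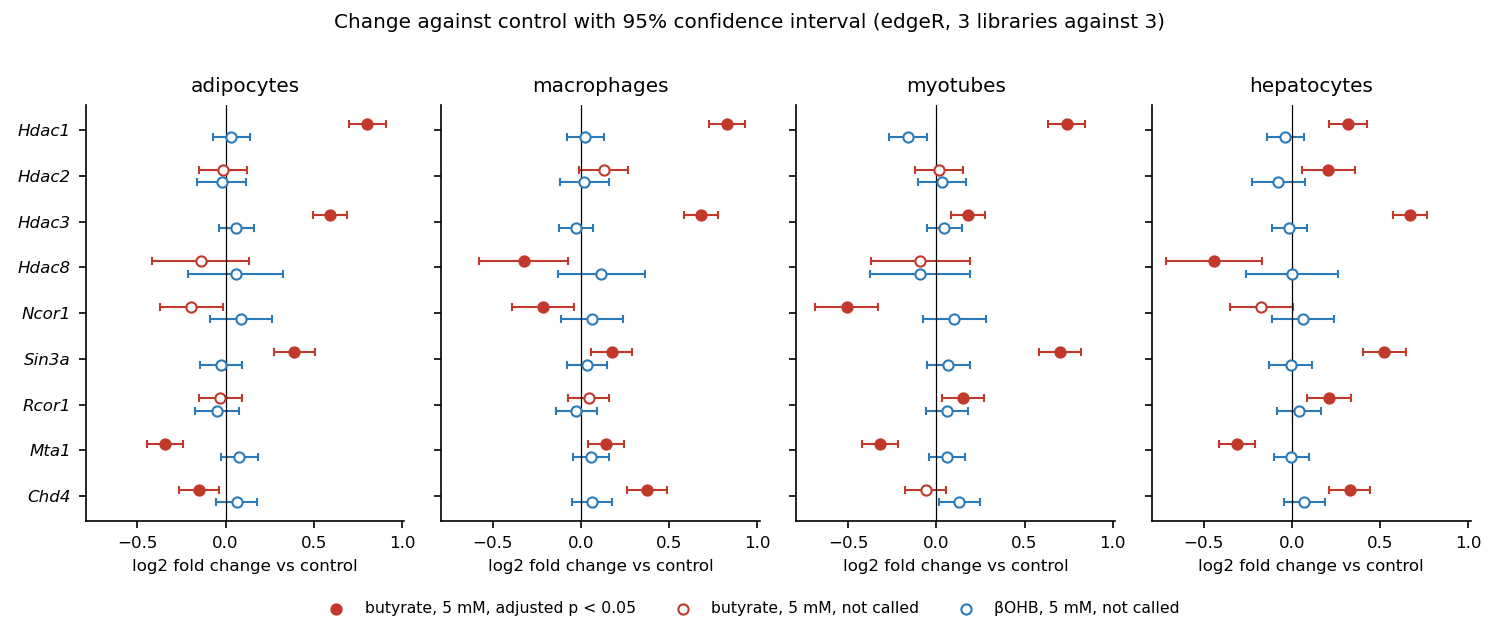
Log2 fold change of the 9 genes against control in each cell type, for butyrate and for βOHB, with the 95% confidence interval of the edgeR fit as bars. The butyrate values run from -0.51 (*Ncor1*, myotubes) to 0.83 (*Hdac1*, macrophages), while all βOHB values lie between -0.16 and 0.13.

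The windows of 250 bases before the transcription start are given for *Sin3a*, called higher in all 4 cell types, for *Hdac2*, which moved little, and for *Mta1* and *Chd4*, which were called in both directions, so that genes with unlike responses can be read side by side. They are RefSeq sequences on the plus strand of GRCm38.p6, written 5′ to 3′, with capitals marking exact matches, on either strand, to a GC box (GGGCGG) or a CCAAT box (CCAAT). A window was found for 7 of the 9 genes, 10 windows in all, 2 each for *Ncor1*, *Sin3a* and *Chd4*, and for *Sin3a* and *Chd4* the more upstream one is printed. The second windows, chr9:57076126-57076375 for *Sin3a* and chr6:125095913-125096162 for *Chd4*, are counted below, and the table used here holds none for *Hdac1* and *Hdac3*.

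Sin3a, chr9:57071790-57072039: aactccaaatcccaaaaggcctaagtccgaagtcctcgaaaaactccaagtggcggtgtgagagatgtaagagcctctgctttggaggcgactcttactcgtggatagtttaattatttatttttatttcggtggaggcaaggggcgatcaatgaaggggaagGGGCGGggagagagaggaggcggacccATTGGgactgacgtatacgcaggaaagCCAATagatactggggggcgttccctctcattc

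Hdac2, chr10:36974294-36974543: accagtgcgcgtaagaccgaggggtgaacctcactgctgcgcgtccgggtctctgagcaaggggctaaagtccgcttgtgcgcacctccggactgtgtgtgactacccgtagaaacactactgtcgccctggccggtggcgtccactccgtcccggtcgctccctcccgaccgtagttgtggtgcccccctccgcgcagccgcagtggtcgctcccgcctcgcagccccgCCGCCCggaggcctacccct

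Mta1, chr12:113098028-113098277: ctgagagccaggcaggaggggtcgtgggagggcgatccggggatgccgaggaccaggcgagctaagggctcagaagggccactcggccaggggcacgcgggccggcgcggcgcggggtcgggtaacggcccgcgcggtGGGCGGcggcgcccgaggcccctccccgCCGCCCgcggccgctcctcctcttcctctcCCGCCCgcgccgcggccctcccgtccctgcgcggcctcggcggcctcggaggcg

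Chd4, chr6:125095731-125095980: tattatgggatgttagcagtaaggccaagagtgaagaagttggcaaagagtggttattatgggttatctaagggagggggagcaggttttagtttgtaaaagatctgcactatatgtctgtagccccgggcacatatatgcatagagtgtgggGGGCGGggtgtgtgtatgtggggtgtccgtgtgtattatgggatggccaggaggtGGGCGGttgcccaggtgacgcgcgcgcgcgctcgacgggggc

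The printed *Sin3a* window held 1 GC box and 2 CCAAT boxes and its second window 3 of each. The *Hdac2* window held 1 GC box and the *Mta1* window 3. The printed *Chd4* window held 2 GC boxes and no CCAAT box, and its second window 3 GC boxes and 1 CCAAT box. A GC box stood in 8 of the 10 windows of the 9 genes, beside 32.7% of the 32851 windows of the same length over all genes, and a CCAAT box in 5 of 10, beside 33.8%. The TATA box (TATAAA) stood in 1 of 10, that of *Hdac8*, beside 12.4%, and the E-box (CACGTG) in 0 of 10, beside 6.02%. Windows of the 9 genes held 36.8% to 80.8% G and C, where the median of all windows was 52.4%, and 2 to 39 CpG sites, where it was 6. Both *Chd4* windows overlap, so a GC box in the overlap is counted in each. A match is a run of letters only, and its part in any response was not tested.

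*Hdac1* encodes one of the paired catalytic subunits of the NuRD, SIN3, CoREST and MiDAC complexes, and its fitted increase was the largest of the 9 in 3 of 4 cell types. In adipocytes it was at 71.1, 71.3 and 68.4 CPM in control replicates 1, 2 and 3 and at 125, 120.0 and 123 CPM in the butyrate libraries. In macrophages the values were 65.4, 67.2 and 61.7 CPM and 113, 114 and 118 CPM. The groups were far apart in both cell types, and the log2 fold change was 0.80 ± 0.050 (SE) in adipocytes and 0.83 ± 0.051 in macrophages (adjusted p = 1.72e-14 and 6.73e-15, edgeR). Myotubes started lower, at 45.2, 40.6 and 42.5 CPM, and held 69.1, 66.1 and 78.8 CPM under butyrate, with replicate 3 the highest. In hepatocytes the control libraries were at 62.0, 63.1 and 64.2 CPM and those with butyrate at 77.5, 77.5 and 80.9 CPM. The groups again did not overlap, and the change was 0.74 ± 0.052 in myotubes and 0.32 ± 0.052 in hepatocytes (adjusted p = 2.50e-13 and 3.34e-06, edgeR). As folds, *Hdac1* rose 1.75-fold, 1.78-fold, 1.67-fold and 1.25-fold in adipocytes, macrophages, myotubes and hepatocytes. Its lead over *Sin3a* in myotubes (0.74 against 0.70) turned without butyrate replicate 3, to 0.66 against 0.76.

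*Hdac3*, on chromosome 18, encodes the enzyme of the NCoR and SMRT complexes. In hepatocytes, where its control level was highest, it was at 72.7, 77.4 and 73.9 CPM without and 118, 114 and 124 CPM with butyrate. Macrophages held 48.1, 51.0 and 47.8 CPM in controls and 77.1, 76.1 and 81.8 CPM under butyrate. Adipocytes held 50.9, 50.1 and 52.6 and 75.6, 77.8 and 78.3 CPM. In these 3 cell types every butyrate library was above every control, with log2 fold changes of 0.67 ± 0.047, 0.68 ± 0.047 and 0.59 ± 0.047 (adjusted p = 1.17e-13, 1.31e-13 and 3.53e-12, edgeR). Myotubes rose less, from 50.0, 52.4 and 48.4 CPM to 56.7, 58.7 and 55.6 CPM, without overlap and with a log2 fold change of 0.18 ± 0.048 (adjusted p = 0.00136, edgeR). In myotubes the call was lost without a filter on low counts (0.12, adjusted p = 0.309).

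*Hdac2*, the partner of *Hdac1* in the same complexes, moved little. In adipocytes the libraries ran from 72.8 to 77.8 CPM in controls and from 70.5 to 77.8 CPM under butyrate, and in myotubes from 105 to 111 CPM and from 107 to 116 CPM, so both pairs of groups overlapped. Their log2 fold changes were -0.013 and 0.014, with 95% intervals of -0.15 to 0.12 and -0.12 to 0.15. In macrophages it went from 54.3, 55.5 and 53.4 CPM to 57.8, 57.1 and 63.7 CPM, which did not overlap but did not pass the test (0.13 ± 0.068, adjusted p = 0.0942, edgeR). Hepatocytes were the exception, with 40.1, 33.1 and 35.5 CPM in controls and 40.1, 44.4 and 40.9 CPM under butyrate. Butyrate replicate 1 lay just above control replicate 1, and the change of 0.21 ± 0.073 was called (adjusted p = 0.0138, edgeR). The hepatocyte call was lost without control replicate 2 (0.15, adjusted p = 0.109) or butyrate replicate 2 (0.16, adjusted p = 0.0885), and the macrophage value was called with DESeq2 (0.15, adjusted p = 0.0490), with only the 9 macrophage libraries (0.17, adjusted p = 0.0167), without butyrate replicate 2 (0.18, adjusted p = 0.0464) and with library totals alone (0.35, adjusted p = 0.000105).

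*Hdac8*, an X-linked gene whose product acts on cohesin, had a log2 fold change below 0 in all 4 cell types and was called lower in macrophages and hepatocytes. Macrophages held 7.71, 7.21 and 7.31 CPM in controls and 5.82, 5.96 and 5.96 CPM under butyrate. Hepatocytes held 7.65, 7.26 and 6.33 CPM and 5.62, 5.90 and 4.02 CPM, with butyrate replicate 3 the lowest. Neither pair overlapped, and the changes were -0.33 ± 0.12 and -0.44 ± 0.13 (adjusted p = 0.0213 and 0.00440, edgeR). In adipocytes and myotubes the groups did not overlap either, but -0.14 and -0.091 did not pass the test. Their intervals were -0.41 to 0.13 and -0.37 to 0.19. Over the alternatives the myotube value ran from -0.15 to 0.046, so its direction depended on the processing. At these low counts the macrophage call was lost without control replicate 1 or any of butyrate replicates 1, 2 and 3 (-0.31 to -0.29), without a filter on low counts (-0.34, adjusted p = 0.0545) and with library totals alone (-0.10, adjusted p = 0.488). The hepatocyte call was lost without butyrate replicate 3 (-0.30, adjusted p = 0.0546).

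Because counts grow with transcript length, the 4 enzymes were set beside each other as CPM per kb of exon (union of the exons of a gene). The sum over the 4 was 51.0 ± 0.426, 44.6 ± 1.44, 50.0 ± 1.03 and 46.3 ± 0.173 CPM per kb in control adipocytes, macrophages, myotubes and hepatocytes, and 72.4 ± 0.752, 67.2 ± 2.22, 60.2 ± 1.39 and 62.6 ± 1.36 CPM per kb under butyrate. Each butyrate mean was above its control, with *Hdac1* and *Hdac3* adding most. *Hdac2* held the largest share of the sum in control myotubes, 48.8% ± 0.897, and the share of *Hdac1* there was 24.8% ± 0.834. In control adipocytes and macrophages *Hdac1* led, with 40.0% ± 1.10 and 42.2% ± 0.585. In control hepatocytes *Hdac1* and *Hdac3* held 39.5% ± 0.837 and 39.8% ± 1.33, and *Hdac2* 17.5% ± 1.66.

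Under butyrate the *Hdac1* share was 49.2% ± 0.925 in adipocytes, 49.7% ± 0.653 in macrophages and 34.4% ± 2.58 in myotubes, above control in each library. In hepatocytes it was 36.5% ± 0.118, below control, and *Hdac3* held 46.9% ± 1.21. The *Hdac2* share was lower than in controls in the first 3 cell types, at 23.2% ± 1.09, 19.8% ± 0.540 and 41.0% ± 1.87, against 33.3% ± 0.926, 27.3% ± 0.349 and 48.8% ± 0.897. In hepatocytes its mean was also lower, at 14.9% ± 1.00 against 17.5% ± 1.66, with overlapping libraries. *Hdac8* held 3.70% or less in all groups. With the longest transcript as the length, the *Hdac1* share in control hepatocytes became 46.9% and that of *Hdac3* 31.5%, and under butyrate 44.4% and 38.2%, so the order of both enzymes in hepatocytes depended on the length used in both groups. These shares are descriptions of mRNA, without a test.

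**Figure D3:**
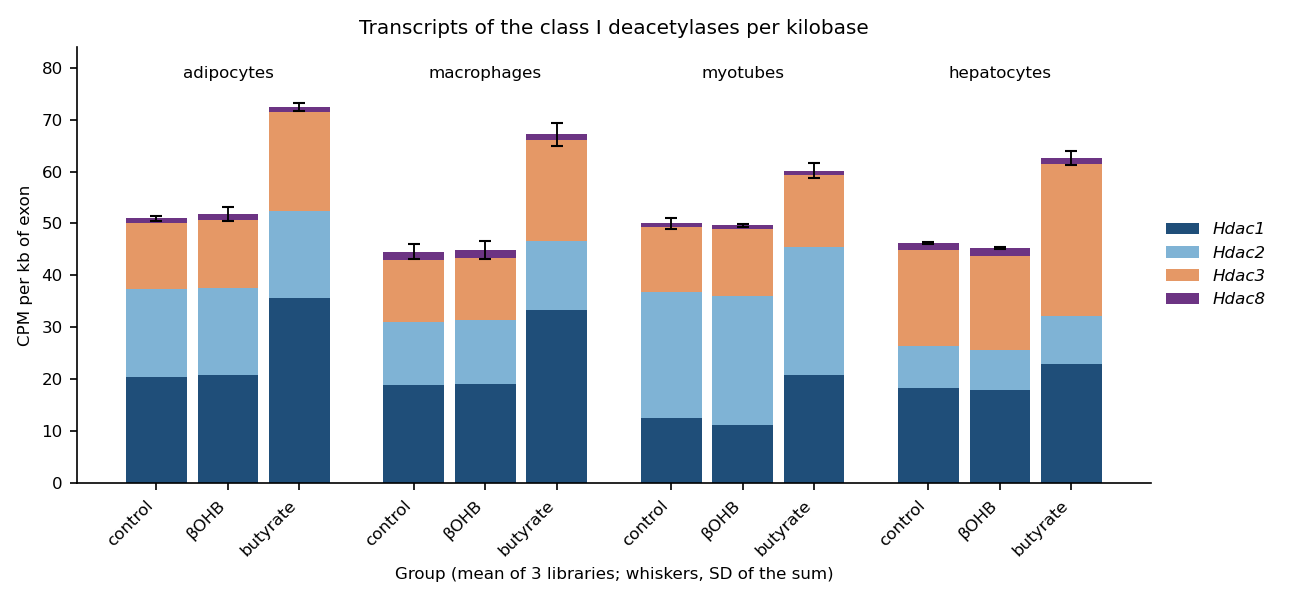
Summed mRNA of the class I deacetylases in the 12 groups, as stacked bars of CPM per kb of exon (mean of 3 libraries for each enzyme, whiskers the SD of the sum). The bar of each cell type is tallest under butyrate, at 72.4, 67.2, 60.2 and 62.6 CPM per kb against 51.0, 44.6, 50.0 and 46.3 CPM per kb in controls (adipocytes, macrophages, myotubes, hepatocytes), and *Hdac2* is the largest segment in control myotubes.

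*Sin3a*, the scaffold of the SIN3 complex, rose in all 4 cell types, most in myotubes, where its control level was lowest. Myotube controls were at 39.6, 39.3 and 37.0 CPM and butyrate libraries at 65.3, 65.7 and 57.0 CPM. Hepatocytes went from 51.5, 57.2 and 59.4 to 81.1, 82.2 and 78.7 CPM. Both pairs of groups were clearly apart, with log2 fold changes of 0.70 ± 0.059 and 0.52 ± 0.059 (adjusted p = 1.22e-11 and 3.33e-09, edgeR). Adipocytes held 67.9, 66.7 and 64.8 CPM in controls and 88.4, 85.7 and 87.1 CPM under butyrate. In macrophages the values lay closer, at 85.4, 82.7 and 80.8 CPM and 95.0, 98.4 and 87.4 CPM, with butyrate replicate 3 lowest, just above the highest control. The changes were 0.39 ± 0.057 and 0.17 ± 0.056 (adjusted p = 6.09e-07 and 0.00791, edgeR), and the macrophage call was lost without a filter on low counts (0.16, adjusted p = 0.109).

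*Ncor1*, the corepressor of nuclear receptors that carries HDAC3, had a log2 fold change below 0 under butyrate in all 4 cell types. The fall was largest in myotubes, from 235, 242 and 257 CPM in controls to 183, 185 and 147 CPM, with butyrate replicate 3 the lowest. It came to -0.51 ± 0.087 (adjusted p = 7.06e-06, edgeR). In macrophages the controls were at 259, 265 and 250.5 CPM and the butyrate libraries at 234, 241 and 192 CPM, where replicate 3 again stood lowest. This change of -0.21 ± 0.086 was called (adjusted p = 0.0305, edgeR), but without butyrate replicate 3 it was -0.10 (adjusted p = 0.349), without control replicate 1 or 2 the call was lost (-0.21 and -0.20), and with library totals alone it was 0.0095. Adipocytes (-0.19, adjusted p = 0.0528) and hepatocytes (-0.17, adjusted p = 0.0839) missed the threshold in the edgeR fit. The adipocyte libraries of the 2 groups did not overlap, at 240.2 to 249.6 CPM in controls and 207.7 to 221.7 CPM under butyrate, whereas those of hepatocytes did. The adipocyte value was called with limma-voom (-0.19, adjusted p = 0.0473), without a filter on low counts (-0.23), with only the 9 adipocyte libraries (-0.19) and with the replicate block (-0.19), and without control replicate 1 that of hepatocytes was (-0.25, adjusted p = 0.0180).

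*Rcor1*, the scaffold that joins the demethylase KDM1A to HDAC1 and HDAC2 in CoREST, changed by -0.030 in adipocytes and 0.043 in macrophages without passing the test, with intervals of -0.15 to 0.092 and -0.075 to 0.16. In hepatocytes it rose from 59.1, 62.4 and 59.5 CPM to 68.0, 72.8 and 68.5 CPM, and in myotubes from 79.0, 74.1 and 74.0 CPM to 87.2, 82.6 and 82.0 CPM. Neither pair overlapped. The changes of 0.21 ± 0.060 and 0.15 ± 0.058 were called (adjusted p = 0.00311 and 0.0256, edgeR), and that in myotubes was lost without control replicate 2 or 3 or butyrate replicate 1 (0.12 to 0.13) and without a filter on low counts (0.085). With library totals alone the macrophage value became 0.27 (adjusted p = 0.000726).

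*Mta1* and *Chd4*, both of the NuRD complex, went different ways in different cell types. *Mta1* was at 57.1, 55.9 and 57.3 CPM in control adipocytes and 42.1, 45.6 and 46.4 CPM with butyrate. Myotubes fell from 66.9, 69.4 and 67.5 CPM to 53.9, 53.6 and 56.0 CPM. Hepatocytes fell from 91.0, 94.5 and 88.0 CPM to 76.3, 74.3 and 69.8 CPM. In these 3 cell types all butyrate libraries were below all controls, with log2 fold changes of -0.34 ± 0.051, -0.32 ± 0.050 and -0.31 ± 0.050 (adjusted p = 7.02e-07, 1.87e-06 and 2.44e-06, edgeR). Macrophages, which had the lowest control level at 51.6, 51.4 and 50.0 CPM, held 54.4, 58.1 and 56.4 CPM under butyrate. All 3 were above the controls, and the change of 0.14 ± 0.050 was called (adjusted p = 0.0140, edgeR), though not without control replicate 3 (0.13, adjusted p = 0.0540) or without a filter on low counts (0.13, adjusted p = 0.260).

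*Chd4* rose in macrophages, from 397, 401 and 407 CPM to 529, 534 and 498 CPM, and in hepatocytes, from 365, 386 and 400.2 CPM to 464, 484 and 496 CPM. Butyrate libraries were above controls throughout, with changes of 0.37 ± 0.056 and 0.33 ± 0.056 (adjusted p = 9.05e-07 and 7.84e-06, edgeR). In adipocytes it fell from 341, 323 and 343 CPM to 305, 301 and 301 CPM, a change of -0.15 ± 0.056 (adjusted p = 0.0219, edgeR). The adipocyte call was lost without control replicate 1 or 3 or butyrate replicate 2 or 3 (-0.15 to -0.13), without a filter on low counts (-0.19, adjusted p = 0.0832) and with library totals alone (-0.061, adjusted p = 0.316). Myotubes overlapped, at 466 to 514 CPM in controls and 429 to 490.0 CPM under butyrate, with an interval of -0.18 to 0.053.

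Whether the response to butyrate differed between the 4 cell types was tested for each gene with a joint test of the treatment by cell type interaction (3 degrees of freedom), which 74.5% of all genes passed. Of the 9 genes, 7 passed. *Hdac3* (adjusted p = 1.74e-07, edgeR) ranged from 0.18 in myotubes to 0.68 in macrophages. *Chd4* (4.66e-07) ranged from -0.15 in adipocytes to 0.37 in macrophages, and *Mta1* (6.21e-07) from -0.34 in adipocytes to 0.14 in macrophages. *Hdac1* (6.37e-07) ranged from 0.32 in hepatocytes to 0.83 in macrophages, and *Sin3a* (1.38e-05) from 0.17 in macrophages to 0.70 in myotubes. These 5 passed under all 43 alternatives tried. *Ncor1* (0.0440) and *Rcor1* (0.0494) lay at the threshold and passed in 28 and 13 of 43, while *Hdac2* (0.135) and *Hdac8* (0.273) did not pass and were called in 1 and 0 of 43. Leaving out myotube butyrate replicate 2, which had the most hepatocyte marker RNA, left 6 of 9 genes called in myotubes, with *Hdac1* at 0.79, *Sin3a* at 0.66 and *Ncor1* at -0.57. Myotube butyrate replicate 3 differed most from its replicates, with a chi-square per degree of freedom of 39.9 and 44.9 against 9.16 between replicates 1 and 2, and its myotube markers summed to 14905 CPM against 20879 and 21060 CPM. Leaving it out also left 6 of 9 called, with *Hdac1* at 0.66, *Sin3a* at 0.76 and *Ncor1* at -0.41.

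Under βOHB, none of the 9 genes passed the test in any cell type (edgeR). The share of all genes that passed was 0.00652% in adipocytes, 0% in macrophages, 2.91% in myotubes (0.346% higher and 2.56% lower) and 0.00652% in hepatocytes. The 36 log2 fold changes lay between -0.16 and 0.13, and the bounds of their 95% intervals between -0.38 and 0.36, so larger changes of these mRNAs fell outside every interval. An unadjusted p below 0.05 was reached in 2 of 36, both in myotubes. *Hdac1* was there at 45.2, 40.6 and 42.5 CPM in controls and 38.6, 39.5 and 36.5 CPM with βOHB, without overlap, with a change of -0.16 ± 0.053 (adjusted p = 0.110, edgeR). DESeq2 and library totals alone called it (-0.19 and -0.23, adjusted p = 0.0492 and 0.0356), and limma-voom called none of the 36. *Chd4* was at 466, 486 and 514 CPM in controls and 548, 513 and 545 CPM with βOHB, which overlapped, with a change of 0.13 ± 0.056 (adjusted p = 0.281, edgeR).

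Libraries with βOHB stood apart from controls without overlap for 4, 0, 2 and 1 of the 9 genes (adipocytes, macrophages, myotubes, hepatocytes), beside 12.7%, 11.1%, 22.9% and 6.71% of all genes. In adipocytes these were *Hdac3* (0.062), *Mta1* (0.079), *Ncor1* (0.089) and *Rcor1* (-0.049), and in myotubes *Mta1* (0.058) stood beside *Hdac1*. The gene in hepatocytes was *Hdac1* (-0.036), at 62.0, 63.1 and 64.2 CPM in controls and 60.9, 61.8 and 61.8 CPM with βOHB. In myotubes 446 of all genes were called under βOHB, 175 to 585 with 1 library left out (175 without control replicate 1) and 0 with only the 9 myotube libraries, and the drop of macrophage markers there stands above. The interaction test under βOHB passed for none of the 9, beside 0.978% of all genes.

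Butyrate and βOHB were compared directly at the same dose and time, 1 pair of compounds in 4 cell types, with p-values adjusted over all genes of each comparison. The control libraries do not enter these contrasts, but the comparisons above share them, so the values of both compounds against control are not independent. The test called a difference in 6 (adipocytes), 6 (macrophages), 6 (myotubes) and 9 (hepatocytes) of the 9, beside 59.5%, 64.7%, 66% and 63.5% of all genes. In the same order 3, 4, 3 and 6 were higher with butyrate, beside 30%, 31.8%, 33.1% and 30.5% of all genes, and 3, 2, 3 and 3 lower, beside 29.5%, 32.8%, 32.9% and 33%. Libraries of both compounds did not overlap for 6, 5, 7 and 9, beside 65%, 70.2%, 66.9% and 67%. Of the 36 differences, 16 were thus higher with butyrate, 11 lower and 9 not called. *Hdac1* was higher with butyrate by 0.77, 0.80, 0.90 and 0.35, *Hdac3* by 0.53, 0.71, 0.14 and 0.69, and *Sin3a* by 0.42, 0.14, 0.63 and 0.53 in adipocytes, macrophages, myotubes and hepatocytes. The myotube difference of *Hdac3* lost its call without βOHB replicate 1, without butyrate replicate 2 or without a filter on low counts (0.11 in each). *Ncor1* was called lower with butyrate in all 4, by log2 differences of -0.28, -0.28, -0.61 and -0.24. With library totals alone the call held in myotubes but not in adipocytes (-0.16, adjusted p = 0.0929), macrophages (-0.050, adjusted p = 0.620) or hepatocytes (-0.16, adjusted p = 0.0946). In hepatocytes that call was lost without βOHB replicate 1 or butyrate replicate 1 or 3, and in macrophages without βOHB replicate 2 or without butyrate replicate 3 (-0.17, adjusted p = 0.112).

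*Mta1* was lower with butyrate than with βOHB in adipocytes, myotubes and hepatocytes (-0.42, -0.38 and -0.31), and *Hdac8* in macrophages and hepatocytes (-0.44 in both). The *Hdac8* call was lost in macrophages with library totals alone (-0.21, adjusted p = 0.127) and in hepatocytes without butyrate replicate 3 (-0.30, adjusted p = 0.0528). *Chd4* was higher in macrophages and hepatocytes (0.31 and 0.26) and lower in adipocytes and myotubes (-0.21 and -0.19). The last 2 calls were lost with library totals alone (-0.091 and 0.0052), and that in myotubes also with only the 9 myotube libraries (-0.14). In hepatocytes *Hdac2* (0.28) and *Rcor1* (0.17) were also higher, the latter not called without βOHB replicate 2 (0.059), without butyrate replicate 2 (0.14), without a filter on low counts (0.18) or with only the 9 hepatocyte libraries (0.21). The macrophage value of *Sin3a* was not called without βOHB replicate 3 (0.087), without butyrate replicate 2 (0.12) or without a filter on low counts (0.13).

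No difference between the compounds was called for *Hdac2* in adipocytes, macrophages and myotubes (intervals -0.13 to 0.15, -0.028 to 0.25 and -0.15 to 0.12) or for *Rcor1* in the same 3 (-0.10 to 0.14, -0.049 to 0.19 and -0.030 to 0.21). The same held for *Hdac8* in adipocytes and myotubes (-0.47 to 0.078 and -0.28 to 0.29) and *Mta1* in macrophages (-0.018 to 0.19). These intervals hold for the TMM scaling only. With library totals alone the macrophage differences of *Hdac2*, *Rcor1* and *Mta1* were 0.34, 0.30 and 0.31, and the myotube differences of *Hdac2* and *Rcor1* 0.18 and 0.29, all called and above their intervals. With only the 9 macrophage libraries those 3 genes were called as well (0.15, 0.10 and 0.12), as was *Mta1* there without butyrate replicate 1 (0.13). *Rcor1* in myotubes was also called with DESeq2, with RLE factors and with only the 9 myotube libraries (0.14 in each). The absence of a call does not show that both compounds acted alike.

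The lists used here hold 49 further genes, all of them above the filter. They are subunits of the complexes around the 9 genes and the 5 genes of the cohesin core, which holds the HDAC8 substrate SMC3. Of these, 20 were higher and 18 lower under butyrate in adipocytes, 17 and 25 in macrophages, 18 and 23 in myotubes and 12 and 22 in hepatocytes, with medians of 0.062, -0.19, -0.076 and -0.088 on the log2 scale. Of all genes, 30.7% were higher and 30.3% lower in adipocytes, 31.9% and 33.2% in macrophages, 33.1% and 33.4% in myotubes and 31% and 32.4% in hepatocytes, with medians of 0, 0, 0 and -0.0083, which are also the background of the counts of each complex below. With library totals alone the counts were 25 and 16, 22 and 19, 22 and 19, and 14 and 19. All genes at that scaling were 5406 higher and 3793 lower, 6685 and 3339, 6271 and 3873, and 5183 and 4474. Under βOHB, 0 of the 49 passed the test in each of the 4 cell types (edgeR).

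The other 11 NuRD subunits were 3 higher and 5 lower in adipocytes, 4 higher and 7 lower in macrophages, 2 higher and 7 lower in myotubes and 1 higher and 7 lower in hepatocytes, with medians of 0.012, -0.39, -0.30 and -0.50. Of them 5 were lower in all 4 cell types, beside 12.7% of all genes. *Mta3*, a paralogue of *Mta1*, changed by -0.66 ± 0.062, -1.08 ± 0.062, -0.65 ± 0.067 and -1.91 ± 0.069 (± SE) in adipocytes, macrophages, myotubes and hepatocytes, the order kept below. *Mbd3*, the methyl-CpG-binding domain subunit, changed by -0.89 ± 0.067, -1.37 ± 0.069, -0.69 ± 0.066 and -1.28 ± 0.069, and *Cdk2ap1*, a small NuRD subunit, by values between -1.34 ± 0.068 in hepatocytes and -0.80 ± 0.063 in myotubes. All 3 kept their direction and their calls with both other scalings. In macrophages *Mta1* was called higher and its paralogue *Mta3* lower.

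The other 17 SIN3 subunits were 9 higher and 4 lower, 8 higher and 6 lower, 8 higher and 5 lower and 8 higher and 4 lower, with medians of 0.16, 0.063, 0.18 and 0.14. As with *Sin3a*, 4 were higher in all 4 cell types, beside 12.5% of all genes. *Ing2* and *Ing1*, whose PHD fingers read trimethylated histone H3 lysine 4, changed by 1.08 ± 0.094, 0.33 ± 0.091, 0.89 ± 0.092 and 0.92 ± 0.090 and by 0.64 ± 0.078, 0.55 ± 0.076, 0.96 ± 0.076 and 0.28 ± 0.081. *Arid4b* changed by 0.44 ± 0.076, 0.83 ± 0.072, 0.31 ± 0.073 and 0.78 ± 0.078. Lower in all 4 were *Brms1l*, by -0.55 ± 0.086, -0.54 ± 0.089, -0.44 ± 0.084 and -1.03 ± 0.11, and the histone-binding protein gene *Rbbp7*, which NuRD shares, by -0.16 ± 0.047, -0.39 ± 0.047, -0.30 ± 0.047 and -0.25 ± 0.047. With library totals alone *Rbbp7* stayed below 0 throughout and lost its call in 1 of 4 cell types.

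In CoREST, the other 11 subunits were 4 higher and 5 lower, 4 higher and 6 lower, 3 higher and 7 lower and 1 higher and 8 lower, with medians of 0.062, -0.42, -0.24 and -0.57. *Rcor2*, a paralogue of *Rcor1*, was higher in all 4 by 1.10 ± 0.13, 2.40 ± 0.20, 1.17 ± 0.14 and 1.45 ± 0.26, well beyond *Rcor1* itself. *Ctbp1* and *Ctbp2*, corepressors that bind NADH, were lower in all 4 by -0.81 ± 0.053, -1.35 ± 0.054, -0.73 ± 0.053 and -2.34 ± 0.059 and by -0.68 ± 0.085, -0.92 ± 0.086, -0.46 ± 0.092 and -1.03 ± 0.21, as was *Zmym3* by -0.51 ± 0.088, -0.47 ± 0.081, -0.62 ± 0.085 and -0.80 ± 0.091. The 4 partners of *Ncor1* and *Hdac3* in the NCoR and SMRT complex were 2 higher and 0 lower, 0 higher and 2 lower, 2 higher and 1 lower and 1 higher and 1 lower, with medians of 0.22, -0.11, 0.023 and 0.086, and none was called in the same direction in all 4.

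Of the 3 MiDAC subunits beside the enzymes (2 higher and 1 lower, 1 higher and 1 lower, 2 higher and 1 lower and 1 higher and 1 lower, medians 0.66, 0.012, 0.21 and 0.30), *Mideas* was higher in all 4, by 0.66 ± 0.062, 0.39 ± 0.061, 0.21 ± 0.062 and 0.79 ± 0.064. The 5 genes of the cohesin core, on which HDAC8 acts, were 1 higher and 4 lower, 1 higher and 4 lower, 1 higher and 4 lower and 1 higher and 2 lower, with medians of -0.74, -1.10, -0.62 and -0.088. The gene that rose was *Smc3*, the substrate of HDAC8, by 0.53 ± 0.073, 0.49 ± 0.072, 0.68 ± 0.072 and 1.19 ± 0.076. *Stag1* and *Smc1a* were lower in all 4, by -1.46 ± 0.057, -1.10 ± 0.057, -0.88 ± 0.058 and -1.19 ± 0.060 and by -0.75 ± 0.057, -1.12 ± 0.056, -0.48 ± 0.059 and -0.58 ± 0.059. The named genes of CoREST, MiDAC and cohesin kept direction and call in all 4 cell types with both other scalings.

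**Figure D4:**
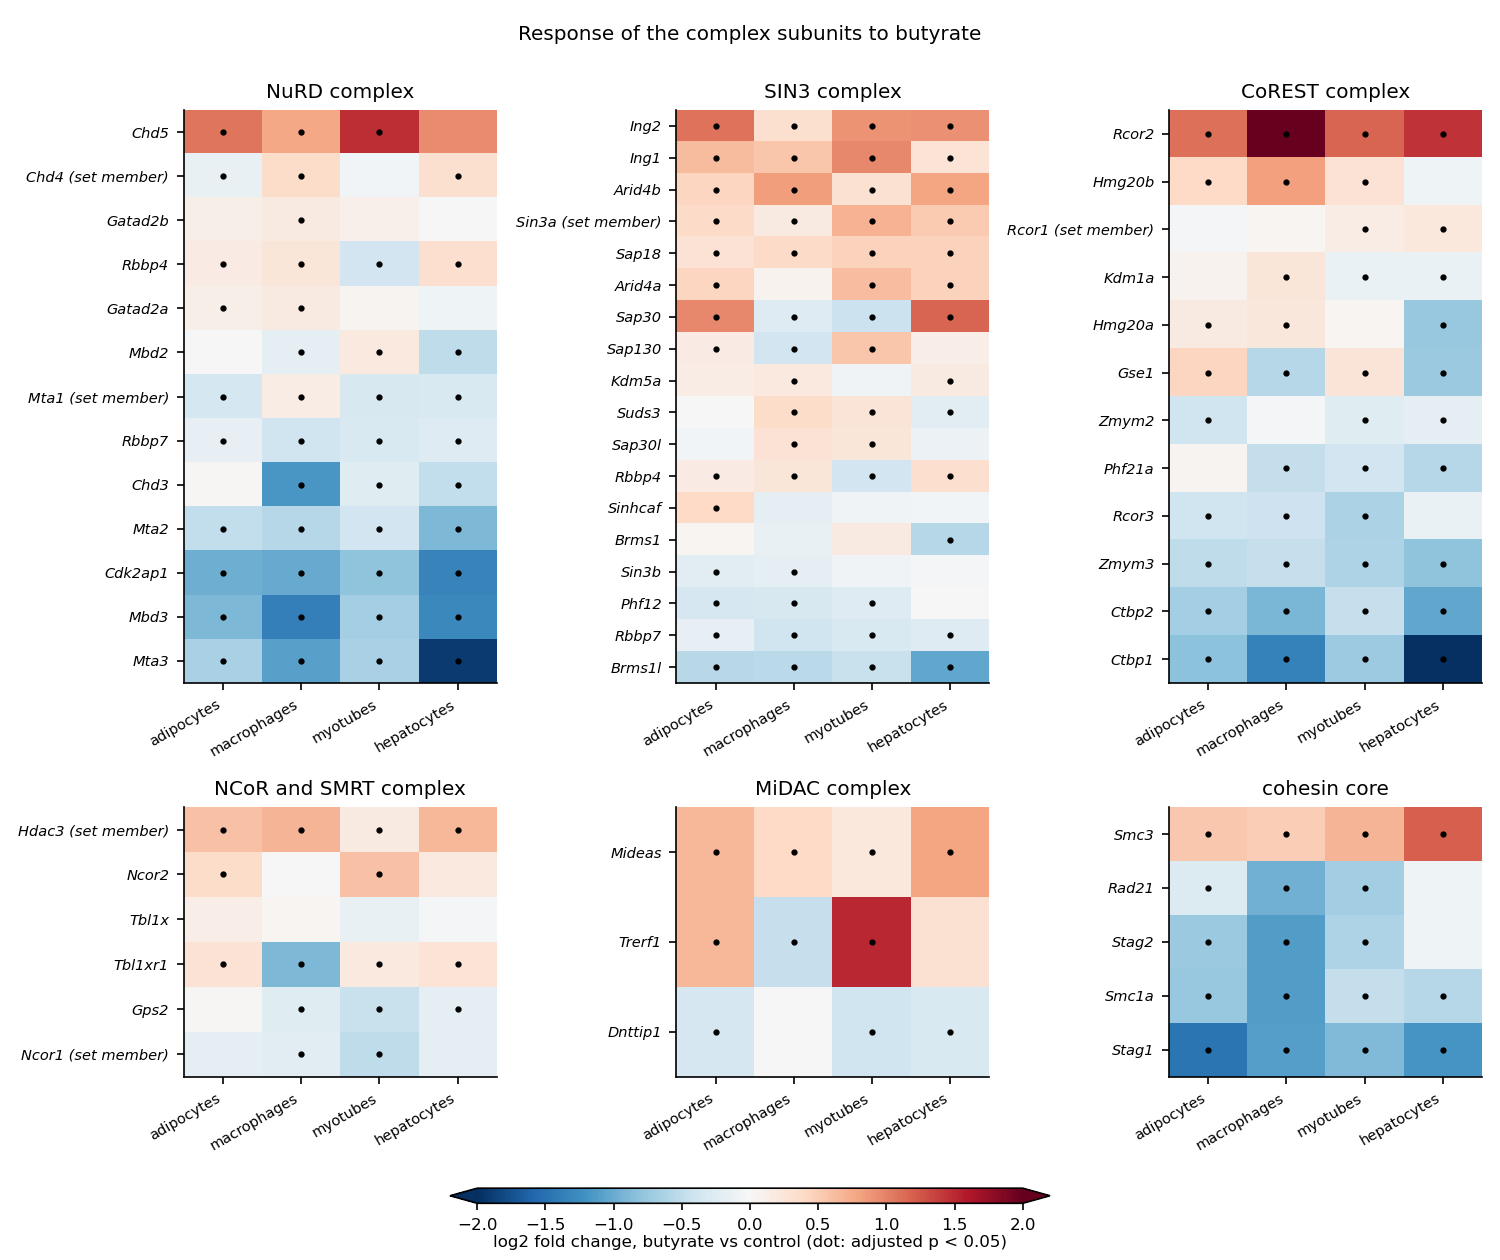
Log2 fold change under butyrate against control (colour, limited to -2 to 2) of the subunits of each complex in the 4 cell types, with a dot where the adjusted p is below 0.05. *Hdac1* and *Hdac2*, which belong to several complexes, are left out, and genes are ordered by their mean. *Ctbp1* in hepatocytes (-2.34) and *Rcor2* in macrophages (2.40) are beyond the colour range.

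Among 14151 protein-coding genes tested, those with the level pattern most like each of the 9 were found by Pearson's r of log2 CPM over the 12 group means, as a description, since the 12 points share cell types and scaling. The 3 highest for *Hdac1* were *Mfsd9* (0.959), *Gtpbp3* (0.942) and *Vmac* (0.942), and for *Hdac3* *Hikeshi* (0.974), *Snrpd3* (0.968) and *Pop5* (0.961). For *Hdac2*, whose levels differed more between cell types than between treatments, they were *Armcx1* (0.995), *Angpt1* (0.995) and *Kcnk2* (0.994). For *Hdac8* they were *Cd14* (0.991), *Pld2* (0.985) and *Myo9b* (0.983). *Sin3a* was followed by *Mdc1* (0.987), *Usp25* (0.981) and *Tcf19* (0.972), *Ncor1* by *Hmbox1* (0.971), *Rbm39* (0.934) and *Pnrc2* (0.922) and *Rcor1* by *Tpp2* (0.985), *Chd8* (0.970) and *Wsb1* (0.966). *Mta1* had *Apex1* (0.975), *Wdr55* (0.969) and *Dnttip1* (0.967), of which *Dnttip1* is a MiDAC subunit, and *Chd4* had lower values, with *Pdcd2l* (0.927), *Utp14a* (0.923) and *Krr1* (0.916). Within the 9, r was 0.856 for *Hdac1* and *Sin3a*, 0.702 for *Rcor1* and *Chd4* and -0.828 for *Hdac2* and *Hdac8*.

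In the annotation of GRCm38, *Hdac1* lies at chr4:129516104-129542713 (minus strand), *Hdac2* at chr10:36974544-37001889 (plus strand), *Hdac8* at chrX:102284639-102505359 (minus strand), *Ncor1* at chr11:62316426-62458541 (minus strand) and *Sin3a* at chr9:57072040-57128366 (plus strand). *Rcor1* lies at chr12:111039351-111115901 (plus strand), *Mta1* at chr12:113098278-113137206 (plus strand), and *Chd4* at chr6:125095981-125130591 (plus strand). Values are sums over all exons of a gene. Processed pseudogenes resemble *Hdac1* closely, the nearest being *Gm10093* with 99.4% identity over 1444 bases, but no such copy of *Hdac1* or *Ncor1* exceeded 0.378 CPM in any library. Exons of other genes overlapped at most 3.81% of the exon bases of any of the 9, the most being the antisense gene *Man2c1os* in *Sin3a*, at up to 0.993 CPM.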

How the data were processed

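Total RNA of 36 libraries was sequenced by the study. The authors mapped reads to GRCm38.p6 transcripts with Salmon 1.2.1 and summed transcripts to genes with tximport, and deposited a table of estimated counts per gene with 1 column per library and no pooling. The methods speak of scaling by transcript length and library size, yet 55.6% of values above 0 were whole as written (no tolerance), so the values were treated as estimated counts and rounded to whole numbers. Whether any such scaling had entered the table was not tested. Of 54347 identifiers, 54094 matched the annotation used here (GENCODE M21). The quasi-likelihood test of edgeR 4.0.16 (R 4.3.3) was applied to genes above 1 CPM in 6 or more libraries, scaled by TMM, with 1 mean for each of 12 groups, all 36 libraries and no replicate block and with Benjamini-Hochberg adjustment over all tested genes. CPM used TMM-scaled totals, and log2 CPM a prior count of 2. Lengths for CPM per kb were unions of exons. The code was tested on simulated data. Replicate libraries differed by more than counting noise, with a chi-square per degree of freedom of 2.68 to 44.9 over 36 pairs, so none was counted as a duplicate. The labels give no batch or date.

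The 9 genes and the complex lists were chosen with earlier results of these data known. Named were all 9 genes and, per list and direction, up to 3 other genes called the same way under butyrate in all 4 cell types, by mean change. Of genes with like patterns, the 3 with the highest correlation were named. Alternatives were limma-voom (limma 3.58.1), DESeq2 1.42.0, RLE factors, totals without a factor, all genes unfiltered, a filter of over 20 counts in 6 libraries, only the 9 libraries of a cell type, a replicate block, each library left out, and an unadjusted P below 0.001 as threshold. Protein sequences were not used here.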

Additional observations from a re-analysis of the deposited data

Results flagged for a closer look

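The effect of butyrate differed between the 4 cell types for 7 of the 9 genes, by the joint interaction test of the edgeR fit, and these were the results marked for a second look. Adjusted p was 1.74e-07 for *Hdac3*, 4.66e-07 for *Chd4*, 6.21e-07 for *Mta1* and 6.37e-07 for *Hdac1*. It was 1.38e-05 for *Sin3a*, 0.0440 for *Ncor1* and 0.0494 for *Rcor1*. Of all genes 74.5% passed the same test. *Mta1* and *Chd4* changed sign between cell types, *Mta1* from -0.34 in adipocytes to 0.14 in macrophages and *Chd4* from -0.15 in adipocytes to 0.37 in macrophages. *Ncor1* was not called in 15 of 43 alternatives, with an adjusted p of 0.224 without myotube butyrate replicate 3, and *Rcor1* was not called in 30 of 43, with 0.175 without a filter on low counts. Groups of 3 libraries were not tested for single libraries that stand apart.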

How the results depend on the processing

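Over 1512 alternative values of single genes, 1438 kept their side of the threshold, of which 1379 also kept direction and 59 changed sign with no call in either, 48 lost and 23 gained the call, and 3 reversed, all with library totals alone. These were *Ncor1* in macrophages under butyrate (0.0095), and *Hdac2* (0.18) and *Chd4* (0.0052) in myotubes for butyrate against βOHB. Under butyrate in macrophages, 4 of the 9 genes were called with no filter on low counts and 3 at an unadjusted P below 0.001. That threshold gave 5 in hepatocytes and 3 for butyrate against βOHB in macrophages. The shares of all genes called at these settings are not given here, so these counts have no background beside them. Under βOHB in myotubes, DESeq2 and library totals alone each called 1. Counts over all genes under βOHB were small and moved. In adipocytes (1) they were 0 with limma-voom, RLE factors, the replicate block or only the 9 libraries, 3 with DESeq2, 192 with no filter and 26 at P below 0.001. In macrophages (0) they were 2 with DESeq2, 35 with no filter, 5 with only the 9 libraries and 4 at P below 0.001. In myotubes (446) they were 895 with no filter and 0 with only the 9 libraries, and in hepatocytes (1) 2 with DESeq2, 48 with no filter and 25 at P below 0.001. The number of genes whose βOHB effect differed between cell types (150) was 87 with limma-voom, 335 with DESeq2, 787 with no filter and 75 with the replicate block. The cause was not tested.

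Under butyrate, leaving out 1 library at a time gave 4 to 5 of the 9 genes called in adipocytes and 5 to 7 in macrophages. It gave 5 to 6 in myotubes and 7 to 9 in hepatocytes. In that order the calls over all genes were 8717 to 8825, 9336 to 9431, 9535 to 9949 and 9188 to 9305. All-gene counts under βOHB were 0 to 2 in adipocytes, 0 to 1 in macrophages, 0 to 29 in hepatocytes (29 without βOHB replicate 2) and 175 to 585 in myotubes, where leaving out control replicate 1 or 2 or βOHB replicate 1 or 2 gave 175, 287, 255 and 214. The βOHB difference between cell types was 0 to 333, with 0 without myotube βOHB replicate 1 or 2, 6 without control replicate 1 and 333 without control replicate 3.

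Taken over all cell types, same-numbered libraries did not deviate together (correlations of -0.26 to 0.27, own number best in 13 of 36). The numbers were therefore not taken as pairs. In adipocytes, though, own number was best in 2 of 3 for control with βOHB and 3 of 3 for control with butyrate. It was best in 2 of 3 for βOHB with butyrate, and these adipocyte correlations ran from -0.11 to 0.22. Whether adipocyte libraries were paired is thus not settled. With the replicate block, *Ncor1* in adipocytes was also called under butyrate, which made 6 of 9 there. The other counts of the 9 were 7, 6 and 8, and 6 in place of 7 passed the interaction test. Calls over all genes in that fit were 9362, 9933, 10188 and 9723 (9359, 9972, 10200 and 9737 without the block). The interaction test then passed for 11325 of all genes in place of 11428.

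Library totals alone moved 60 of 108 group levels by more than 1 SD, RLE factors 12, and the longest transcript in place of all exons 90. With 60 counts at the least, *Hdac8* had the widest intervals of the 9, and 3 libraries a group limit all of them.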
